A study of Homo sapiens with 4 samples.

Results

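The eIF4G family in these data was EIF4G3 (ENSG00000075151), EIF4G1 (ENSG00000114867) and EIF4G2 (ENSG00000110321), 3 of the 17764 gene identifiers that carried a peak. EIF4G3 was chosen on measured values, because it held many peaks that both eCLIP libraries shared. EIF4G1 and EIF4G2 were added as its paralogues, whatever their own peaks. All 3 genes had peaks in each of the 4 libraries.

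Peaks came from eCLIP, in which ultraviolet light joins RNA to protein and the RNA fragments bound to 1 immunoprecipitated protein are sequenced. The protein was FLAG-tagged ZFR, a zinc finger RNA-binding protein with a DZF domain. There were 2 eCLIP libraries, numbered 1 and 2, and 2 size-matched inputs, numbered 1 and 2, which hold RNA from the lysate without immunoprecipitation. All 4 came from Flp-In T-REx-293, a human embryonic kidney line with a single FRT integration site that carried FLAG-ZFR in polyclonal cells. Every group, inputs included, had received 1 µg/mL doxycycline for 48 to 72 h to switch on the transgene and 400 mJ/cm2 of crosslinking. ZFR was thus a tagged and induced copy, and no cells without the transgene were analysed here.

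The eIF4G proteins are the scaffold of the cap-binding complex eIF4F. They join eIF4E, which holds the mRNA cap, to the helicase eIF4A, and reach the small ribosomal subunit through eIF3. EIF4G1 encodes the main form, eIF4GI, and EIF4G3 encodes eIF4GII, which can take its place in the complex. EIF4G2 encodes DAP5, a shorter relative that lacks the eIF4E-binding part and serves translation that does not use eIF4E.

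The peak lists differed widely in length, with 479308 and 41904 peaks in eCLIP libraries 1 and 2 and 63068 and 11204 in inputs 1 and 2. Reads in these peaks came to 3075352 and 229647 in eCLIP and to 249245 and 102084 in the inputs. The depth of the libraries themselves is unknown, so a gene's share is given per 10000 peaks, or per 10000 reads in peaks, of the same library. Separate cultures are not named for the libraries of either group, and the spread between them, which the p-values measure, may be technical. Positions are hg19 coordinates counted from 1. Whether a peak lay in an exon, an intron or a UTR was not analysed here.

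EIF4G3 lay on the minus strand of chromosome 1, and its peaks ran over 370.146 kb, between 21133201 and 21503346. It held 675 and 186 peaks in eCLIP libraries 1 and 2, and 107 and 37 in inputs 1 and 2. As a share of the list this was 14.1 and 44.4 per 10000 peaks in eCLIP, against 17.0 and 33.0 in input. The groups overlapped, since eCLIP 1 lay below both inputs and eCLIP 2 above both. The mean share was 29.2 ± 21.4 per 10000 in eCLIP and 25.0 ± 11.4 in input (SD, n = 2 each). Over the 8914 genes with at least 10 peaks, 21.1% had both eCLIP shares above both inputs, and EIF4G3 was not among them.

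By reads the groups of EIF4G3 did not overlap. Its peaks held 7762 and 1110 reads in eCLIP and 380 and 164 in the inputs. That was 25.2 and 48.3 per 10000 reads in peaks for eCLIP, against 15.2 and 16.1 for the inputs. The mean was 36.8 ± 16.3 in eCLIP and 15.7 ± 0.579 in input (SD, n = 2 each), a ratio of 2.35. Both eCLIP libraries lay above both inputs by this measure in 25.0% of the 8914 genes. No test is given for EIF4G3, since its eCLIP peaks chose it.

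A peak of EIF4G3 held a mean of 11.5 and 5.97 reads in eCLIP 1 and 2, against 3.55 and 4.43 in inputs 1 and 2. The median was 9 and 4 reads in eCLIP, against 3 and 4 in input, so eCLIP 2 and input 2 had the same median. Over all peaks of a library the mean was 6.42 and 5.48 reads in eCLIP, against 3.95 and 9.11 in input, and EIF4G3 in eCLIP 2 was near its library's mean. The strongest peak had 46 and 57 reads in eCLIP, against 8 and 11 in input. A deposited p-value of at most 0.001 was reached by 64.6% and 33.9% of the EIF4G3 peaks in eCLIP, against 12.1% and 24.3% in input. Limited to such peaks, the share of EIF4G3 was 39.1 and 68.7 per 10000 in eCLIP, against 16.4 and 28.0 in input. The groups then did not overlap, as was the case for 31.8% of the 3334 genes compared at that limit. With all peaks the share of EIF4G3 was 14.1 and 44.4 in eCLIP, against 17.0 and 33.0 in input. Its peaks thus reached the limit more often than all peaks of the same library in eCLIP, and slightly less often in input. With each list reduced to as many best-ranked peaks as input 2 holds, the shares were 85.7 and 62.5 in eCLIP, against 11.6 and 33.0 in input. Of 959 genes compared that way, 32.8% had both eCLIP libraries above both inputs. Intervals that ended where the next began numbered 5 and 1 in eCLIP 1 and 2, against 42 and 0 in inputs 1 and 2. With such intervals joined, the EIF4G3 share was 14.1 and 44.9 per 10000 in eCLIP, against 14.0 and 33.9 in input, and the groups still overlapped.

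**Figure D1:**
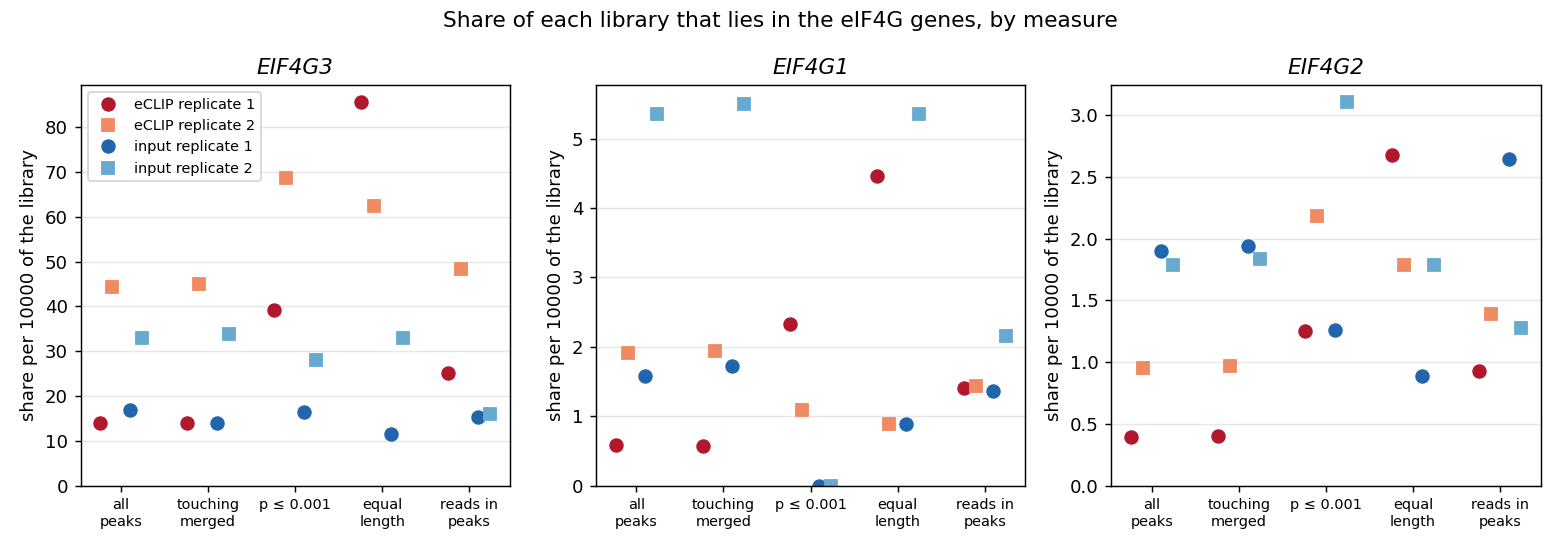
Share of each library in the 3 eIF4G genes, per 10000 peaks or, in the right column of each panel, per 10000 reads in peaks, with 1 point per library and no mean drawn. For EIF4G3 the eCLIP points (25.2 and 48.3) stand above the input points (15.2 and 16.1) by reads, and the groups overlap when all peaks are counted.

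EIF4G1 lay on the plus strand of chromosome 3, with peaks over 20.666 kb between 184032390 and 184053055. It had 28 and 8 peaks in eCLIP, against 10 and 6 in input, or 0.584 and 1.91 per 10000 peaks against 1.59 and 5.36. The groups overlapped, with eCLIP 2 between the inputs. Under a second identifier, described below, eCLIP 1 listed 62 peaks in this span, or 1.29 per 10000, also below both inputs. The other libraries listed as many peaks there as under EIF4G1. The size of the eCLIP 1 share thus depends on the identifier, and its place below both inputs does not. In the limma fit over 8914 genes, with EIF4G1 as listed, its log2 difference, eCLIP minus input, was -1.11 (SE 0.82, adjusted p = 0.995), which did not pass. Its reads came to 435 and 33 in eCLIP and to 34 and 22 in the inputs, or 1.41 and 1.44 per 10000 against 1.36 and 2.16. Among peaks with a p-value of at most 0.001 the order turned, with 26 and 1 peaks in eCLIP and 0 in either input, an order that 31.8% of genes had at that limit. The log2 difference of EIF4G1 at that limit was 2.09, and it did not pass either (limma, adjusted p = 0.131).

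EIF4G2 lay on chromosome 11, minus strand, and its peaks ran over 11.724 kb between 10818688 and 10830411. It had 19 and 4 peaks in eCLIP, against 12 and 2 in input, or 0.396 and 0.955 per 10000 peaks against 1.90 and 1.79. Both eCLIP libraries lay below both inputs, as they did for 10.2% of the 8914 genes. The log2 difference of EIF4G2 was -1.04 (SE 0.78, limma adjusted p = 0.995) and did not pass. Its reads came to 287 and 32 in eCLIP and to 66 and 13 in the inputs. Per 10000 reads that was 0.933 and 1.39 in eCLIP, against 2.65 and 1.27 in input, so the groups overlapped by reads. At a p-value of at most 0.001 they also overlapped, with 1.26 and 2.18 per 10000 peaks in eCLIP, against 1.26 and 3.11 in input. With each list reduced to the length of input 2 the mean of EIF4G2 was higher in eCLIP, at 2.68 and 1.79 in eCLIP, against 0.893 and 1.79 in input. In a list of that length 1 peak makes 0.893 per 10000, so this higher mean rests on very few peaks. The sign of the EIF4G2 mean difference thus differed between settings.

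Across all genes the limma fit called 0 genes higher in eCLIP (0.0%) and 0 lower (0.0%), with 112 and 62 genes at an unadjusted p under 0.05. Without eCLIP library 2 it called 695 genes higher, and without input 1 and without input 2 it called 5 and 1 lower. Neither EIF4G1 nor EIF4G2 was called when any 1 library was left out. With 2 libraries in each group, the smallest two-sided p that exact permutation allows is 0.33.

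Levels were set side by side per length of each gene's span. The values are not scaled for the reads of a library, so they compare genes within a library and not eCLIP with input. EIF4G3 held 21.0 reads in peaks per kb of its span in eCLIP 1 and 3.00 in eCLIP 2, against 1.03 and 0.443 in inputs 1 and 2. EIF4G1 held 21.0 and 1.60 reads per kb in eCLIP, against 1.65 and 1.06 in input. EIF4G2 held 24.5 and 2.73 reads per kb in eCLIP, against 5.63 and 1.11 in input. In both inputs EIF4G3 had the lowest value of the family. The EIF4G1 value in eCLIP 1 counts only its 28 listed peaks, of 6 or more reads, whereas 62 peaks of 3 or more reads lay in the same span under another identifier, and EIF4G3 was listed down to 4 reads. The differences between the genes were not tested.

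The sites that the eCLIP libraries shared in EIF4G3 are a description, since the gene was chosen for them. Of its 675 peaks in eCLIP 1, 96 (14.2%, Wilson 95% interval 11.8 to 17.1) overlapped a peak of eCLIP 2 by at least 1 base on the same strand, and 31 (4.59%) overlapped an input peak. Of the 675, 87 (12.9%) met a peak of eCLIP 2 and none of either input, the count for which the gene was chosen. These are called shared eCLIP-only peaks here, and the absence of input overlap refers to the eCLIP 1 peak. Over all peaks of eCLIP 1, 2.96% were found in eCLIP 2, 1.95% overlapped an input peak, and 2.52% were found in eCLIP 2 and in neither input. Counted on eCLIP 2, 95 of 186 EIF4G3 peaks (51.1%, 43.9 to 58.2) overlapped a peak of eCLIP 1, and 18 (9.68%) overlapped an input peak. Those shares were 33.1% and 7.37% over all peaks of that library. The intervals cover counting error only.

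In eCLIP 1 the shared part was higher among peaks with more reads, in EIF4G3 as in all genes. Of the EIF4G3 peaks with over 10 reads in eCLIP 1, 25.1% were found in eCLIP 2, next to 17.1% of such peaks over all genes. With 6 to 10 reads the shares were 7.32% for EIF4G3 and 3.68% over all genes, and with 4 to 5 reads they were 2.97% and 1.35%. Counted on eCLIP 2, 46.4% of the EIF4G3 peaks with 3 reads were found in eCLIP 1, next to 28.0% over all genes. For peaks with over 10 reads in eCLIP 2 the shares were 46.7% for EIF4G3, or 7 of 15, and 54.0% over all genes.

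The number of shared sites in EIF4G3 was high, but among genes with many such sites their density was not. Its 87 sites were 0.721% of all shared eCLIP-only peaks, which lay in 3903 genes. Among the 238 genes with at least 10 such peaks, EIF4G3 was 118th by their number per kb, at 23.5 per 100 kb, beside a median of 23.4. By density EIF4G3 lay in the middle of these genes, and genes with fewer such peaks were not ranked.

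The median width of the 87 peaks was 34 bases. They held a median of 16 reads in eCLIP 1, with 4 the lowest and 46 the highest. The eCLIP 2 peaks that met them held a median of 4, with 3 the lowest and 17 the highest, and 31 of the 87 rested on 3 reads in eCLIP 2. Unshared EIF4G3 peaks had a median of 9 reads in eCLIP 1 and of 4 in eCLIP 2. Across the 87 peaks the reads of the libraries were weakly related (Spearman's rho 0.168 across peaks of 1 gene, which are not independent). The summits, the position that each list gives inside a peak, lay a median of 5 bases apart, 66 of 87 within 10 bases and the widest 49 apart. Since the peaks were paired by their overlap, their summits had to lie close, and no value over all genes is given beside these. The nearest input peak lay a median of 598 bases away, and 22 of the 87 had a p-value of at most 0.001 in both eCLIP libraries.

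**Figure D2:**
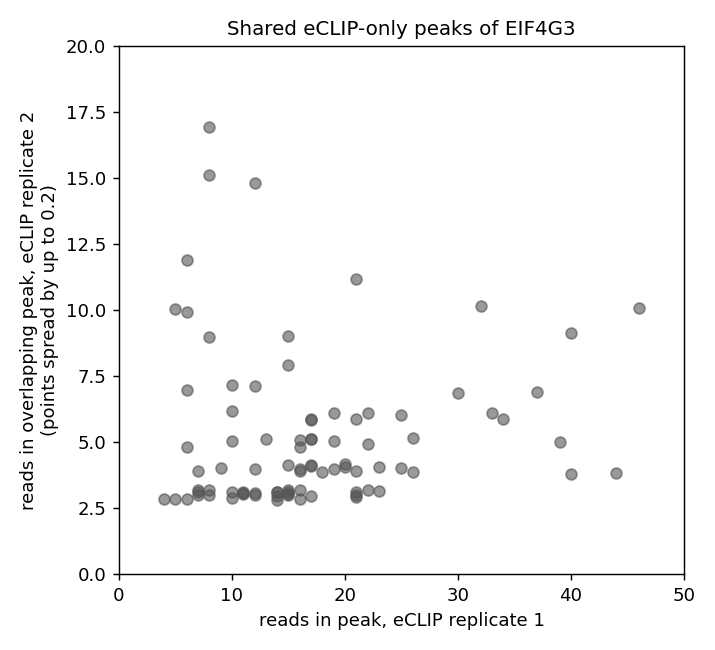
Reads in each of the 87 shared eCLIP-only peaks of EIF4G3 in eCLIP 1 (horizontal axis) and in the overlapping peak of eCLIP 2 (vertical axis), with points spread slightly so that ties can be seen. Many points lie at 3 reads in eCLIP 2, and the peaks with 15 to 17 reads there have 8 to 12 in eCLIP 1.

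Of the 5 shared sites with most reads in eCLIP 2, 4 had fewer reads in eCLIP 1 than the median of 16. The peak at chr1:21407600-21407627 had 8 reads in eCLIP 1 and 17 in eCLIP 2. The peak at chr1:21455481-21455516 had 12 and 15 reads, that at chr1:21494970-21494980 had 8 and 15, and that at chr1:21415160-21415185 had 6 and 12. The fifth, at chr1:21489437-21489481, had 21 and 11. None of these 5 eCLIP 1 peaks touched an input peak, although a peak of input 2 lay 40 bases from the second and 53 bases from the third. At the second the eCLIP 2 peak itself met an input peak, which was the case at 1 of the 87 sites in all.

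The strongest EIF4G3 peaks of each library, looked up after the values were seen, differed in their overlap with the inputs. In eCLIP 1 the top 5 peaks had 46, 44, 44, 41 and 40 reads, of which 3 met an eCLIP 2 peak and 0 met an input peak. In eCLIP 2 the top 5 had 57, 34, 28, 19 and 18 reads, of which 1 met an eCLIP 1 peak and 4 met a peak of input 2. The strongest of all, at chr1:21473469-21473522 with 57 reads in eCLIP 2, met an eCLIP 1 peak of 14 reads and an input 2 peak of 3 reads. Over all genes the libraries differed likewise. Of peaks with over 10 reads, 9.89% in eCLIP 1 and 37.7% in eCLIP 2 overlapped an input peak. For EIF4G3 these shares were 8.01% in eCLIP 1 and 46.7%, or 7 of 15, in eCLIP 2.

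Some sites of EIF4G3 had a peak in all 4 libraries. With overlapping peaks joined across libraries, 114 of its sites were found in 2 libraries, 9 in 3 and 2 in all 4. The share over all genes is not given here, and the 37 peaks of input 2 in the gene limit how many such sites there can be. The site at chr1:21456992-21457094 held 30 reads in eCLIP 1 and 3 in eCLIP 2, against 5 in input 1 and 4 in input 2. Per 10000 reads in peaks this was 0.0975 and 0.131 in eCLIP, against 0.201 and 0.392 in input. Both eCLIP libraries thus lay below both inputs there. The site at chr1:21465402-21465575 held 10 reads in eCLIP 1 and 18 in eCLIP 2, against 6 in input 1 and 7 in input 2. Per 10000 this was 0.0325 and 0.784 in eCLIP, against 0.241 and 0.686 in input, and the groups overlapped.

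Most shared sites of EIF4G3 fell in 1 stretch near its 5′ end. Joined where they lay under 5 kb apart, the 87 peaks made 13 groups, 11 of them single peaks. The largest, chr1:21434444-21495952, was 61.509 kb long and lay between 7.394 and 68.902 kb from the 5′-most base of the gene's peaks. It covered 16.6% of the span and held 66 of the 87 shared peaks (75.9%). The second, chr1:21406147-21415185, was 9.039 kb long, lay between 88.161 and 97.199 kb, and held 10. No shared peak lay beyond 238.393 kb.

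The large stretch was also dense in peaks of every single library, inputs included. EIF4G3 had 269 and 123 peaks there in eCLIP, against 44 and 20 in input. In reads this was 4330 and 767 in eCLIP, or 55.8% and 69.1% of the gene's reads in peaks, against 157 and 97, or 41.3% and 59.1%, in the inputs. The eCLIP percentages were not separate from those of the inputs, since eCLIP 1 lay below input 2. In the second stretch the counts were 33 and 17 peaks with 389 and 128 reads in eCLIP, against 1 and 3 peaks with 4 and 14 reads in input. There the share of the gene's reads was 5.01% and 11.5% in eCLIP, against 1.05% and 8.54% in input, and eCLIP 1 again lay below input 2.

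Joined at under 2 kb, the large stretch broke into 5 groups. Counted along the gene they held 18 shared peaks (chr1:21482137-21495952), 20 (chr1:21468390-21480128), 15 (chr1:21453117-21466353), 8 (chr1:21439610-21448796) and 5 (chr1:21434444-21435978). The group of 20 lay between 23.218 and 34.956 kb and held the strongest EIF4G3 peaks of both eCLIP libraries.

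**Figure D3:**
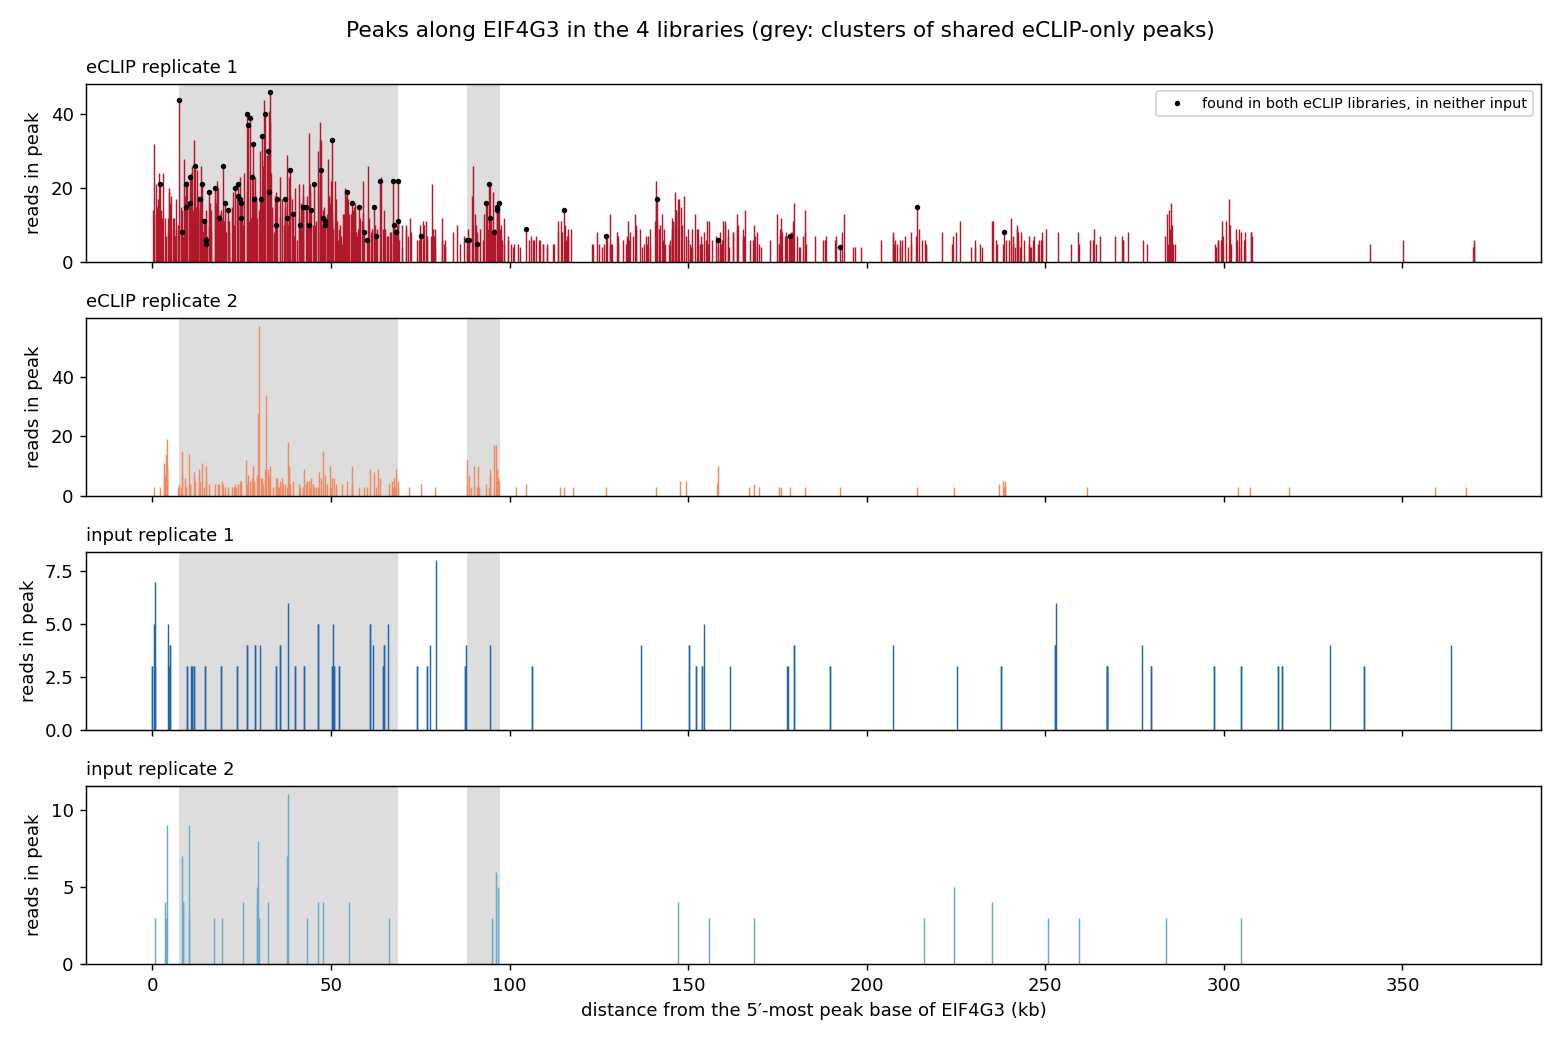
Peaks of EIF4G3 in the 4 libraries, by distance from the 5′-most peak base (kb) and by reads in the peak, on a reads axis that differs by panel. Dots mark the 87 peaks that both eCLIP libraries share and no input peak overlaps, and grey bands mark the stretches with 66 and 10 of them.

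The slope of peaks toward the 5′ end of EIF4G3 was present in eCLIP and in input. In eCLIP the first 3 of 10 equal parts of its span held 57.9% and 83.9% of its peaks, against 61.7% and 73.0% in the inputs. Over the 6536 genes with 20 or more peaks spread across 5 kb or more, those parts held 39.6% and 40.2% of the eCLIP peaks, against 33.5% and 35.8% of the input peaks. The last part of EIF4G3 held 0.741% and 1.08% of its peaks in eCLIP, against 2.80% and 0% in input. The groups overlapped in the first 3 parts and in the last.

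Compared with long genes alone, EIF4G3 was toward the 5′ side in eCLIP 2 and less so in eCLIP 1. Among genes of at least 100 kb with at least 20 peaks in the library, the first 3 parts held a median of 42.6% of the peaks in eCLIP 1 (1845 genes) and of 53.5% in eCLIP 2 (176 genes). The value was above that of EIF4G3 in 21.1% of these genes in eCLIP 1 and in 5.68% in eCLIP 2.

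**Figure D4:**
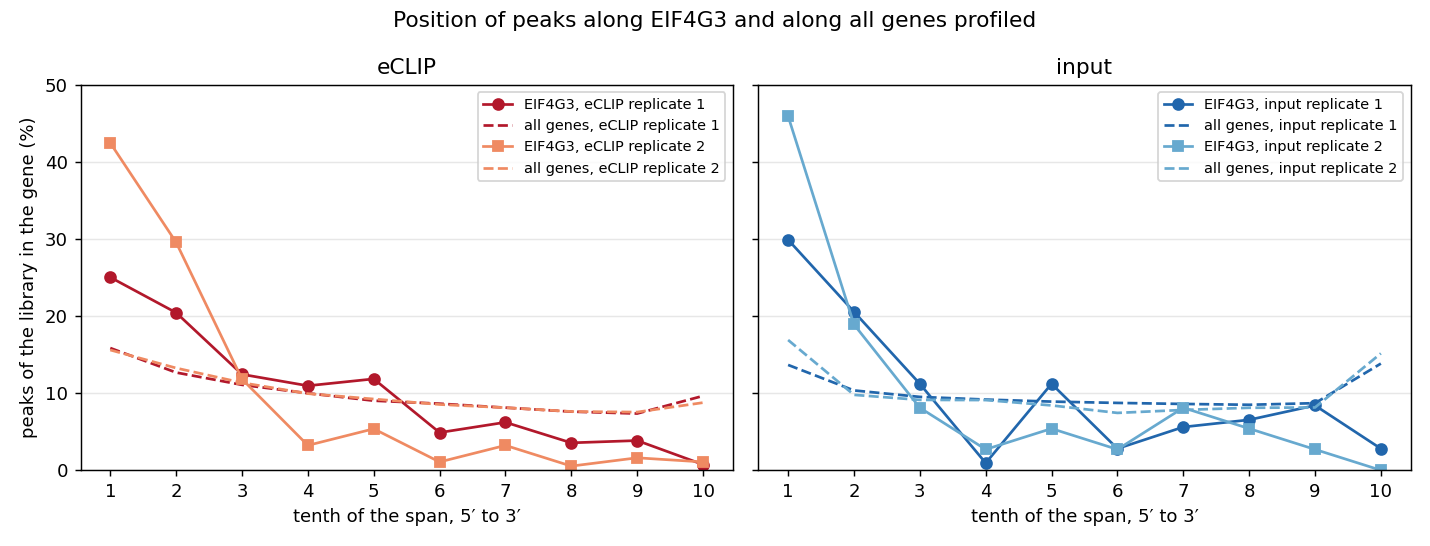
Percent of the peaks of EIF4G3 in each of 10 equal parts of its span, ordered 5′ to 3′, in the eCLIP libraries (left) and the inputs (right), with all 6536 profiled genes dashed. The first part holds 25.0% and 42.5% in eCLIP and 29.9% and 45.9% in input, so the descent is seen in all 4 libraries.

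EIF4G1 had no site that both eCLIP libraries shared and both inputs lacked. Over all genes such sites were 2.52% of the eCLIP 1 peaks, and 0 of 28 peaks lies near that share. Of its peaks, 1 of 28 in eCLIP 1 and 1 of 8 in eCLIP 2 were shared, at chr3:184043481-184043542, and this site also met a peak of input 2. It held 59 reads in eCLIP 1 and 5 in eCLIP 2, against 0 in input 1 and 4 in input 2. Per 10000 reads in peaks this was 0.192 and 0.218 in eCLIP, against 0 and 0.392 in input. Of the EIF4G1 peaks in eCLIP, 19 of 28 and 6 of 8 lay in the first 3 parts of its span, against 3 of 10 and 3 of 6 in the inputs, which are small numbers.

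Peaks of EIF4G1 were also listed under a second gene identifier, ENSG00000145191, which the files do not name. The repeats were 19 of 28 and 8 of 8 peaks in eCLIP, and 10 of 10 and 6 of 6 in the inputs. Within the span of EIF4G1 that identifier listed 62 and 8 peaks in eCLIP, against 10 and 6 in input. In eCLIP 1 its weakest peak there had 3 reads, and the weakest under EIF4G1 had 6, so the same stretch gave more peaks under the other identifier. Of the 63 eCLIP 1 peaks listed there under other identifiers, 2 were found in eCLIP 2 and 0 of those missed the inputs.

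EIF4G2 had 2 sites that both eCLIP libraries shared and both inputs lacked. Both lay near an end of its span. The site at chr11:10819093-10819184 had 30 reads in eCLIP 1 and 10 in eCLIP 2, and that at chr11:10828888-10828927 had 14 and 3. In all, 4 of 19 EIF4G2 peaks in eCLIP 1 and 4 of 4 in eCLIP 2 overlapped a peak of the other eCLIP library. As shares of the gene's peaks these were 21.1% and 100%, above the 14.2% and 51.1% of EIF4G3, on far fewer peaks. Over all peaks of eCLIP 1 and 2 the shares were 2.96% and 33.1%. Counted on eCLIP 2, 3 of the 4 EIF4G2 peaks were shared and met no input peak, next to 28.7% over all genes.

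The strongest EIF4G2 site, chr11:10823018-10823073, had a peak in every library. It held 88 reads in eCLIP 1 and 16 in eCLIP 2, against 29 in input 1 and 9 in input 2. Per 10000 reads in peaks this was 0.286 and 0.697 in eCLIP, against 1.16 and 0.882 in input. At the same place all 4 libraries listed a peak of equal reads under ENSG00000238622. The strongest EIF4G1 site likewise met a peak of ENSG00000212158 with 46 reads in eCLIP 1. The files name neither identifier, and RefSeq, on another build, places the small nucleolar RNA genes SNORD97 within EIF4G2 and SNORD66 within EIF4G1. EIF4G3 had 0 peaks listed under a second identifier.

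**Figure D5:**
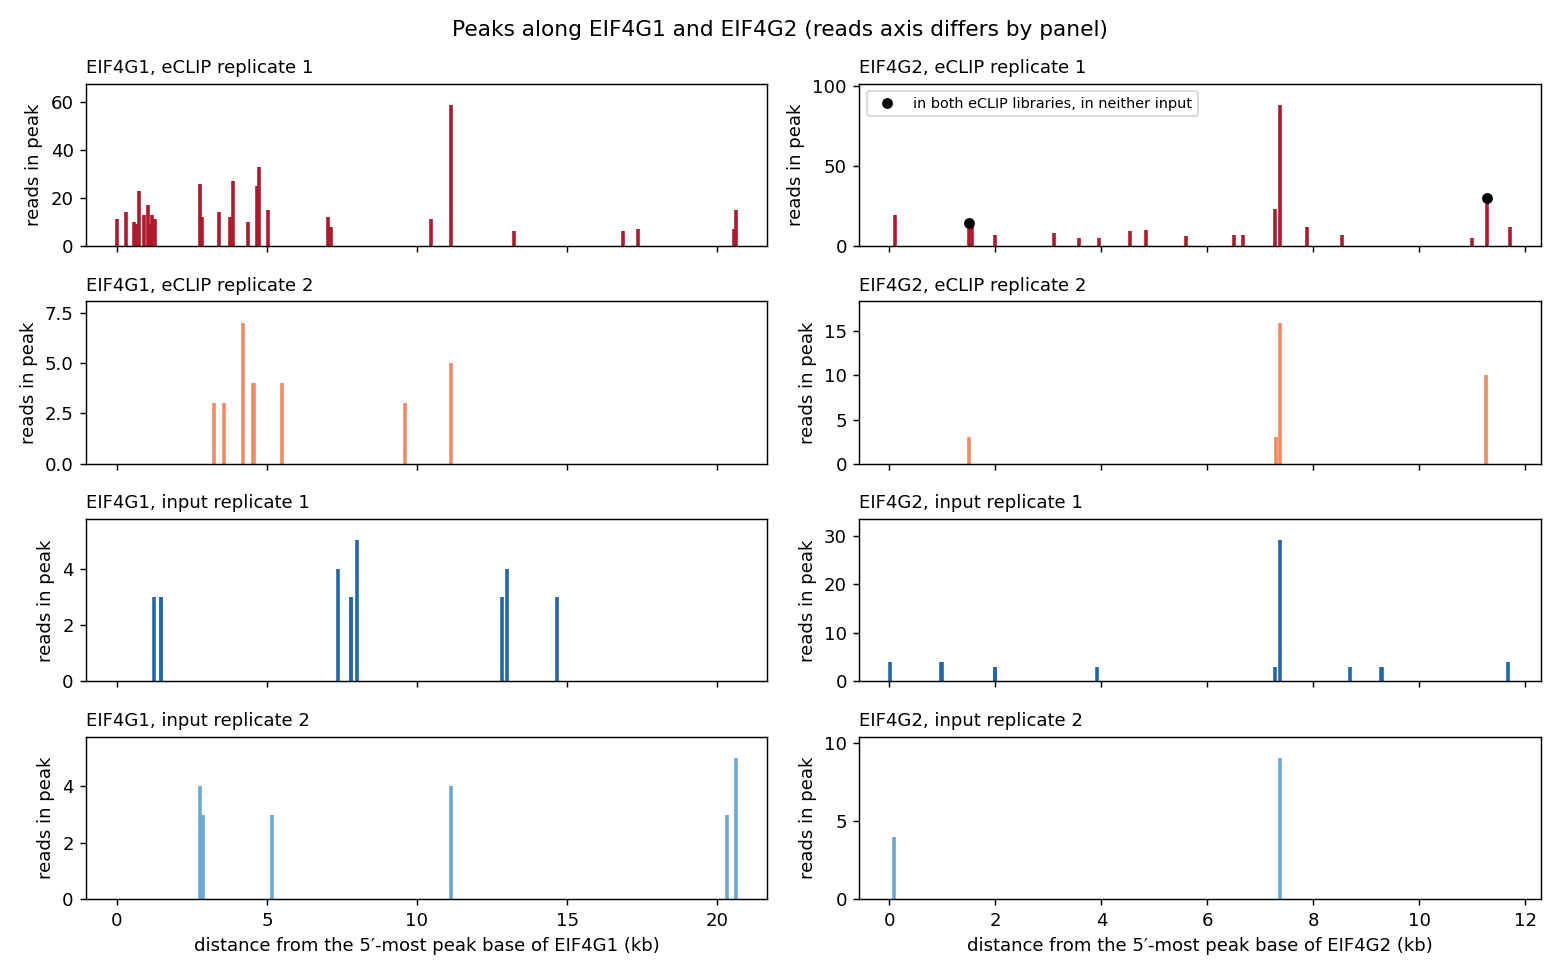
Peaks of EIF4G1 (left) and EIF4G2 (right) in the 4 libraries, by distance from the 5′-most peak base (kb) and by reads in the peak, on a reads axis that differs by panel. The EIF4G2 peak with 88, 16, 29 and 9 reads stands at the same place in all libraries, and the dots mark its 2 sites that both eCLIP libraries shared and both inputs lacked.

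Of the 2 genes with shares most like those of EIF4G3 over the 4 libraries, 1 is not reported here. The other was ENSG00000186153, on the plus strand of chromosome 16 between 78135260 and 79219633. It held 29.6 and 29.6 per 10000 peaks in eCLIP, against 19.8 and 17.9 in input, at a Euclidean distance of 1.49 on the log2 scale. A list of 37 partners and other genes of translation initiation was not set beside the family, because 0 of them could be paired with an identifier of the files.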

How the data were processed

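For each library the authors deposited a peak list, made from reads processed by cutadapt, STAR and SAMtools against hg19, per the submitters' processing notes. The caller and the annotation behind it are not stated in the sources used here. The deposited p-value of each peak is at most 0.05, and the authors' score repeats it as 10 times its negative log10, capped at 1000. The whole number ending a peak's name, 3 or more, was taken as its number of reads, although no file says so.

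Peaks were assigned by their gene identifier. Shares per 10000 went into limma 3.58.1 (R 4.3.3; lmFit, trended eBayes, two-sided, Benjamini-Hochberg adjustment) as log2(peaks per 10000 + 0.5), over 8914 genes with at least 10 peaks, a scale that understates differences of genes with few peaks. The fit was tested on simulated data. Overlap meant at least 1 base on the same strand, whatever the gene identifier of the other peak, and intervals are Wilson 95%.

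The members and lists were chosen with earlier results of these data known. The text names the 3 members, up to 5 shared peaks and 5 stretches in each, and the 2 genes nearest to EIF4G3, of which 1 is not reported here. Alternatives covered the pseudocount, the filter, a p-value limit, merging, reads, equal lists, a replicate block, overlap, stretches and each library left out. Cell type markers and sequences were not analysed here.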

Additional observations from a re-analysis of the deposited data

How the results depend on the processing

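Of the results of the alternatives, 99 stayed on their side of the threshold, within the spread or, for counts, near the main count. Another 23 moved and 1 reversed. The 99 include a split of each span into 5 equal parts. Its first part is the same stretch as the first 2 of 10 parts, so those results could not differ from the main ones. For counts the allowance was wide, since 19 groups in EIF4G3 at under 2 kb passed as near the main 13. The tested result that reversed was EIF4G1 at a p-value limit of 0.001, where its log2 difference was 2.09 (limma, adjusted p = 0.131), and the cause was not tested. At that limit the eCLIP mean share minus the input mean was 31.7 per 10000 for EIF4G3 (4.24 with all peaks), 1.71 for EIF4G1 (-2.22) and -0.467 for EIF4G2 (-1.17), so that of EIF4G1 changed sign. With lists of equal length it was 51.8 for EIF4G3 and 0.893 for EIF4G2, whose sign also changed. In such a list 1 peak makes 0.893 per 10000. Shared eCLIP-only peaks at the limit numbered 24 in EIF4G3, 1 in EIF4G1 and 1 in EIF4G2. That of EIF4G1 rests on an eCLIP 2 peak listed under another identifier. The eCLIP 2 peak listed there under EIF4G1 had a deposited p-value of 0.00215, which is above the limit. Without input 2, an alternative chosen after seeing the data, EIF4G1 had 1. Joined at 10 kb, the 2 EIF4G2 sites made 1 group. The first 2 of 10 parts of EIF4G3 held 64.0% of eCLIP 1, 82.5% of eCLIP 2 and 76.9% of input 1 peaks at the limit, and 62.4% of eCLIP 1 by reads. They held 0% for EIF4G1 in eCLIP 2 and for EIF4G2 in eCLIP 2 and both inputs, since few peaks were left. EIF4G2 was not tested with lists of equal length or with at least 40 peaks.

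Leaving out each library in turn gave 0 to 695 genes higher in eCLIP and 0 to 5 lower, and log2 differences of -1.86 to -0.37 for EIF4G1 and -1.39 to -0.69 for EIF4G2. In these fits a lone library is taken to vary like the others. With the replicate number as a block, limma called 3 genes higher and 1 lower. EIF4G1 stayed at -1.11 (limma, adjusted p = 0.426 with the block) and EIF4G2 at -1.04 (adjusted p = 0.571). Same-numbered libraries deviated together (r = 0.397 across 8914 genes, which are not independent), with only 2 pairs and no label that ties them. Library 1 had the longer peak list in both groups, and how far r reflects list length was not tested. The unknown depth of the libraries limits every share, and peaks of 3 reads limit the shared sites.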
